A study of Homo sapiens with 54 samples.

Results

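The 29 genes described here encode the enzymes of cholesterol synthesis and fatty acid synthesis and the regulators that set their transcription. They were chosen by symbol, through the RefSeq accession of each probe, out of 19720 genes with a symbol on the array. RNA was measured on 54 1-colour Agilent arrays from 27 cultures of human pluripotent stem cells, with 2 arrays of each culture averaged and counted as 1 culture. The study asked whether FGFC, a chimeric protein built from FGF1 and FGF2, could take the place of bFGF (FGF2), and its cultures also span both a defined medium and media made with mouse embryonic fibroblasts (MEFs).

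H1 hESCs were grown in E8 Medium, which is Essential 6 Medium with TGF-beta 1 and an FGF at 100 ng/mL, on Matrigel. There were 3 pre-cultures, kept with bFGF, and 3 numbered experiments of 4 days, each with 1 culture given bFGF, 1 given FGFC and 1 given no FGF. Experiment 1 also gave 1 culture with bFGF and 1 with FGFC at 30 days. The other systems each had 1 pre-culture, 1 long-term culture with bFGF and 1 with FGFC. They were H1 in MEF-conditioned medium (MEF-CM) on Matrigel for 41 days with 5 ng/mL FGF, the hESC line KhES-1 on mitomycin C-treated MEF feeder cells for 30 days with 5 ng/mL, the hiPSC line 201B7 on such feeder cells for 50 days with 10 ng/mL, and the hiPSC line 253G1 in E8 Medium for 36 days with 100 ng/mL. A single further H1 culture was differentiated through embryoid bodies in a medium with 20% KnockOut Serum Replacement and no added FGF. Each system is 1 cell line, and each long-term arm is 1 culture. KhES-1 and 201B7 cultures held mouse feeder cells, whose part in the values was not tested. Of the 7 pluripotent cell markers measured, all 7 passed the scanner's mark for signal well above background throughout, and their log2 summed level was 8.98 to 9.94 in the 15 pre-cultures and long-term cultures, 8.30 to 8.74 without FGF and 5.07 in the differentiated culture. The log2 summed level of 8 fibroblast markers was 5.29 to 5.45 in KhES-1, 5.54 to 5.85 in H1 in E8 Medium, 5.92 to 6.05 in 253G1, 5.99 to 6.09 in MEF-CM, 6.23 to 7.99 in 201B7 and 7.73 in the differentiated culture, with COL3A1 and LUM not well above background in any of these 15 cultures. This sum does not measure fibroblast content, since in H1 in E8 Medium it was mostly THY1. In the 11 such cultures with FGF, THY1 was at 4.88 to 5.78, COL1A1 at 1.24 to 2.76 and COL1A2 at 1.27 to 2.57. In the differentiated culture THY1 was lower, at 2.82, where 7 of the 8 markers were 2-fold or more higher.

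Cells build cholesterol from acetyl-CoA through mevalonate, farnesyl diphosphate, squalene and lanosterol, and the same acetyl-CoA feeds fatty acid synthesis. The transcription factors SREBP-1 and SREBP-2, encoded by SREBF1 and SREBF2, switch these genes on when membranes are short of sterols, and they are held back in the endoplasmic reticulum by INSIG1 when sterols are plentiful. E8 Medium contains no serum, no albumin and no added lipid, whereas serum replacement contains albumin that carries lipids.

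SREBPs bind short sterol regulatory elements close to the start of transcription, so promoters of members that hold such letters are shown. RefSeq windows on GRCh38.p14, from 250 bases before to 50 bases after a start, were found for 25 of the 29 members (34 windows), and those of ACAT2, FDFT1, SQLE and FASN were not used here. The motif CACNCCAC was searched on both strands, and it was in 7 of the 34 member windows (20.6%), those of ACACA, IDI1, INSIG1, SC5D, SCD and SREBF2, against 5.87% of all 35116 windows. The longer form TCACNCCAC, which holds the shorter one, was in 1 member window (2.94%), of SREBF2, against 1.13%. CCAAT, the letters bound by NF-Y, was in 24 member windows (70.6%) of 20 genes, against 34.6%. A match is a description of letters and not a site that was tested. The 250 bases before the start are printed for the 4 members with the motif that differed most between media in the comparison of 5 systems, 5′ to 3′ on the strand of the gene, with CACNCCAC or its reverse complement in capitals.
INSIG1, chr7:155297628-155297877, + strand, first base of the motif at -208 from the start: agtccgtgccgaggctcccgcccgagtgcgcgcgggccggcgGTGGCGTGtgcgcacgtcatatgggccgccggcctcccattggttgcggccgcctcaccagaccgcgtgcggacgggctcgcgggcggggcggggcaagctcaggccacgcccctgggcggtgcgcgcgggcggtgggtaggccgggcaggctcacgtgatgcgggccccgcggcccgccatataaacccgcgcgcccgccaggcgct
ACACA, chr17:37299768-37300017, - strand, first base of the motif at -224: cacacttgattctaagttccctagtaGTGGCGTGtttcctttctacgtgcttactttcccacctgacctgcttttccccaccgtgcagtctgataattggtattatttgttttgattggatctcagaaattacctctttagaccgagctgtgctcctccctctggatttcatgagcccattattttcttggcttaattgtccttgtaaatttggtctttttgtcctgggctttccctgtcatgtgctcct
SC5D, chr11:121292602-121292851, + strand, first base of the motif at -68: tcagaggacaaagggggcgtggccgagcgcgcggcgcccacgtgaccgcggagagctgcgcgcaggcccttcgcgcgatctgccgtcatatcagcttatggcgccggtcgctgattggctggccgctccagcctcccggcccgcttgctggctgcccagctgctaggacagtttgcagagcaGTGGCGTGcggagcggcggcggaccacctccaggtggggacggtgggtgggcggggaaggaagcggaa
SREBF2, chr22:41832855-41833104, + strand, first base of the motif at -132: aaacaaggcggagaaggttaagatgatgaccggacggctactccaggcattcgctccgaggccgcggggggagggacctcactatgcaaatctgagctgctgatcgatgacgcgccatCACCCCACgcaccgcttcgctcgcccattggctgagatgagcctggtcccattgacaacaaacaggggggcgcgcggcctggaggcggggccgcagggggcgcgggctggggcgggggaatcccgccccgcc
The motif was read on the strand opposite to the gene as GTGGCGTG in INSIG1, ACACA and SC5D, and on the gene's own strand as CACCCCAC in SREBF2.

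Levels are given as log2 of the background-subtracted signal minus the 75th percentile of the array, so that 0 is that percentile, and a difference of 1 is 2-fold. Each gene is given by its brightest probe, and levels of different probes are not compared. All 29 members were well above background on all 54 arrays. For 25 members the array has 1 probe, for LSS, SREBF1 and ACACA 2, and for HSD17B7 3. Over the 23 undifferentiated cultures with FGF, the level of a member correlated with the mean of the other members at a median r of 0.81, from 0.16 for SCD to 0.95 for FADS1. Over the 14 of these in E8 Medium the median r was 0.91. There the highest was 0.98 for NSDHL, while SREBF1 was at 0.12, SCD at -0.61 and SC5D at -0.83. The mean of the 18 sterol enzymes and the mean of the 7 fatty acid genes correlated at r = 0.95 over the 14 cultures in E8 Medium and 0.74 over all 23. These are descriptions over cultures that share lines, media and slides.

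The map of all members by culture shows these patterns. Among the cultures in E8 Medium with FGF the member median was lowest in the 4-day cultures and the first 2 pre-cultures of H1, at -0.24 to 0.08 against the mean of all 23 cultures, and highest in the 30-day H1 cultures and 253G1, at 0.39 to 0.61. The cultures in MEF-CM were low in nearly all rows. In KhES-1 the median fatty acid gene was at -0.27 to -0.18 against the mean of all 23 cultures, with ACLY at 0.16 to 0.30 and FADS1 at 0.01 to 0.07, and the median sterol enzyme was at 0.09 to 0.32.

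**Figure D1:**
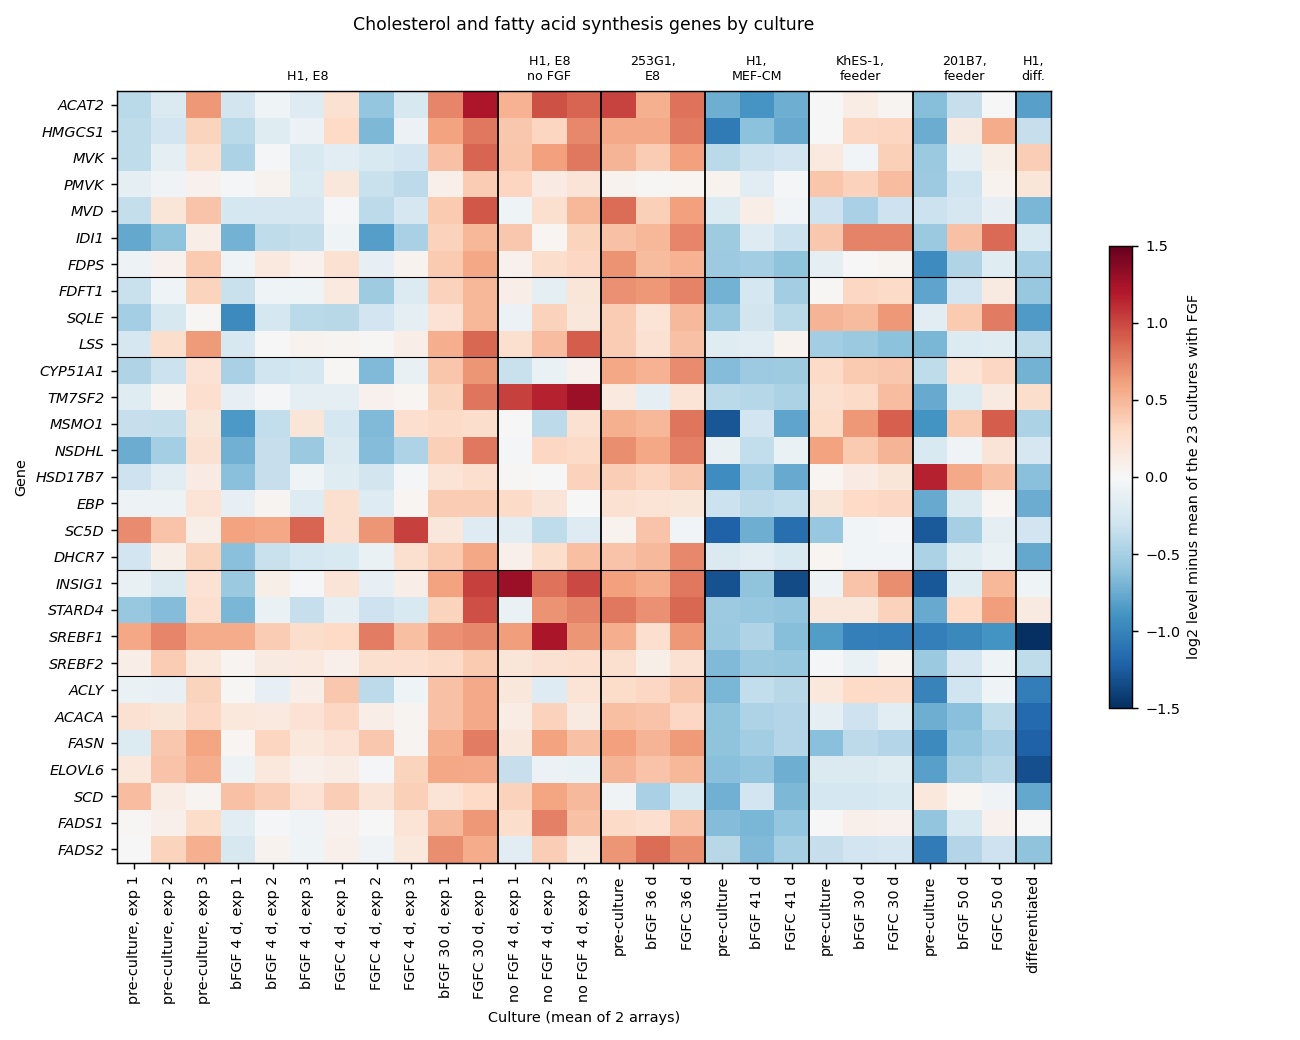
Level of each of the 29 genes (rows, grouped by role) in each of the 27 cultures (columns), as log2 level minus the mean of the 23 undifferentiated cultures with FGF, with values past the ends of the colour bar drawn in the end colour. The columns of H1 in MEF-CM are low in most rows, while KhES-1 on feeder cells is low in SREBF1 and in 5 of the 7 fatty acid genes (not ACLY and FADS1), and the differentiated culture is lowest in SREBF1, ELOVL6, FASN and ACACA.

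The comparison of media asked which members differed between E8 Medium and the MEF-based media. It was first made over the means of the 5 systems, 2 in E8 Medium (H1 and 253G1) and 3 in MEF-based media (H1 in MEF-CM, KhES-1 and 201B7), with the system as the replicate. All 29 members had a higher mean in E8 Medium, as did 63.1% of all probes, by 0.04 for PMVK to 1.40 for SREBF1. The difference was 2-fold or more for 4 members, a share near that of all probes (15.7%). The median difference of the members was 0.60, against 0.15 for all 42405 probes and 0.015 for the probes well above background. Without H1 in MEF-CM 24 of 29 were higher. No member passed limma's test after Benjamini-Hochberg adjustment (percent of probes called 0%), and 6 members had an unadjusted p under 0.05 (16.6% of probes in this direction). Since this fit of 5 means called no probe at all, its count of 0 says nothing about whether the members differed. The 2 E8 means lay above the 3 MEF-based means for 18 of 29 members, against 26.5% of all probes, and below them for 0, against 6.6%. By role, this was so for 4 of 4 regulators, 6 of 7 fatty acid genes and 5 of 7 genes from acetyl-CoA to farnesyl diphosphate, but for 1 of 3 genes from squalene to lanosterol and 2 of 8 from lanosterol to cholesterol.

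SREBF1, the gene of SREBP-1, had mean levels of 4.67 in H1 and 4.49 in 253G1 in E8 Medium, and of 3.46 in MEF-CM, 3.05 in KhES-1 and 3.05 in 201B7. The levels fell into separate ranges in the 2 kinds of medium, and the difference of 1.40 (SE 0.34) had an adjusted p of 0.23 in limma's test. A second, dimmer probe assigned to the same RefSeq transcript differed by 0.07 (adjusted p = 0.98), so the SREBF1 result rests on 1 of its 2 probes. FADS2, a fatty acid desaturase, had mean levels of 5.31 and 5.63 in E8 Medium against 4.37, 4.60 and 4.29, a difference of 1.05 (SE 0.33, adjusted p = 0.23 in limma's test). FASN, the fatty acid synthase, had mean levels of 4.34 and 4.56 against 3.45, 3.49 and 3.31, a difference of 1.04 (SE 0.32, adjusted p = 0.23 in limma's test). For SREBF2, with 2.34 and 2.27 against 1.49, 2.05 and 1.79, and INSIG1, with 1.32 and 1.47 against -0.27, 1.16 and 0.49, the gap to the nearest MEF-based system, KhES-1, was small.

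Culture by culture, 5 members did not overlap between the 14 cultures in E8 Medium with FGF and the 9 in MEF-based media, all 5 higher in E8 Medium, against 1.4% of all probes in this direction. The median of the 14 was below that of the 9 for SQLE (3.12 against 3.70), IDI1 (1.66 against 2.28) and STARD4 (-0.73 against -0.45). It was also below for CYP51A1 (2.58 against 2.83), NSDHL (2.84 against 3.07), HSD17B7, MSMO1 and PMVK, and above for the other members. SREBF1 was at 4.27 (lowest), 4.57 (median) and 4.78 (highest) in E8 Medium and at 2.97, 3.11 and 3.56 in MEF-based media. ACACA, the acetyl-CoA carboxylase that commits carbon to fatty acids, was at 4.23, 4.45 and 4.76 against 3.46, 3.74 and 4.05. FASN was at 3.77, 4.38 and 4.74 against 3.02, 3.45 and 3.58. The gap between the lowest E8 culture and the highest MEF-based one was 0.71 for SREBF1, but 0.18 for ACACA and 0.19 for FASN. ELOVL6, which lengthens the product of FASN, was at 1.63, 2.09 and 2.29 against 0.89, 1.21 and 1.52. FADS2 was at 4.65, 5.14 and 5.73 against 3.85, 4.48 and 4.64, with nearly touching ranges. With the median of each array as the scale in place of the 75th percentile, the count without overlap was 1, and with quantile normalization 8. FGF dose, slide and scan day each differed with the medium and cannot be told apart from it, and the line differed in part. A fit with slide as a random block took the 15 single cultures, and not the 5 system means, as replicates. In it 11 members and 14.8% of all probes passed. Cultures of a system share their origin, so this count cannot be set down to the slide block alone.

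**Figure D2:**
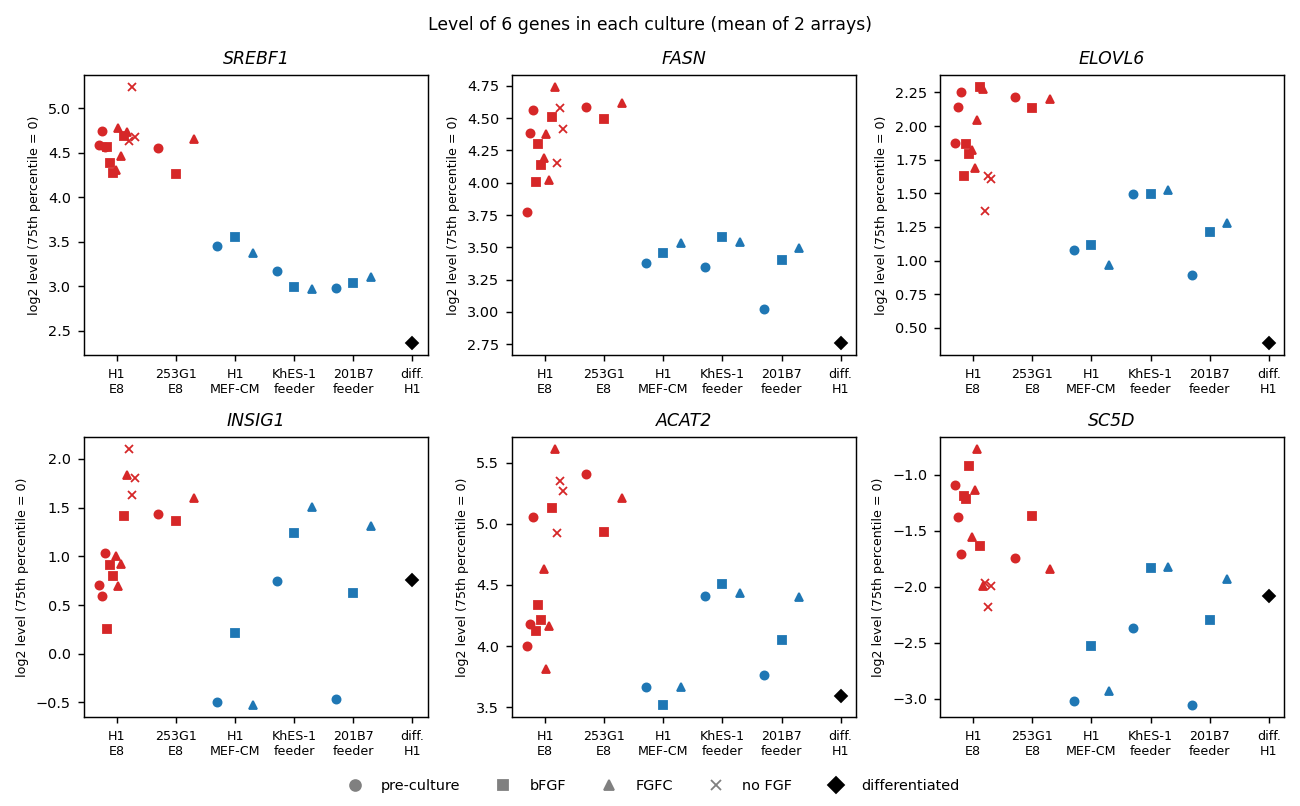
Log2 level (0 is the 75th percentile of the array) of SREBF1, FASN, ELOVL6, INSIG1, ACAT2 and SC5D in each culture by system, with E8 Medium in red and MEF-based media in blue, and 1 point for each culture. For SREBF1, FASN and ELOVL6 the cultures in E8 Medium with FGF lie above all 9 in MEF-based media, while for INSIG1, ACAT2 and SC5D the feeder cultures reach into the range of E8 Medium.

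H1 was the 1 line grown in both kinds of medium. Its pre-culture of experiment 1 and its 30-day bFGF and FGFC cultures in E8 Medium were compared with the 3 matching cultures in MEF-CM, in a limma fit over the 15 cultures of the 5 systems. The 3 cultures of a system share their origin and differ in FGF or time. The p-values therefore measure only the spread among such cultures, not that between independent cultures in a medium. All 29 members were higher in E8 Medium (60.4% of all probes were), and 18 passed the test, all higher, where 20.8% of probes were called higher and 7.8% lower. Among probes well above background in 1 of the systems, 10% were called higher and 10.4% lower. The median difference of the members was 0.81, against 0.15 for all probes, and 7 were 2-fold or more higher (17.4% of probes). Because RNA of whole cultures was measured, fewer cells of a type and less RNA per cell cannot be told apart.

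The 7 fatty acid genes all passed, by 0.79 for ACLY to 1.09 for ELOVL6. Of the regulators 3 of 4 passed, of the genes from acetyl-CoA to farnesyl diphosphate 3 of 7, from squalene to lanosterol 0 of 3 (1 at an unadjusted p under 0.05, as were 27.6% of probes in this direction), and from lanosterol to cholesterol 5 of 8. The members that passed beside those described next were FDPS, CYP51A1, TM7SF2, HSD17B7, EBP, ACLY, ACACA, FASN, SCD, FADS1 and FADS2. The smallest differences were those of PMVK at 0.15 and NSDHL at 0.33, which did not pass.

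Levels are given in the order pre-culture, bFGF and FGFC. INSIG1 was at 0.71, 1.42 and 1.84 in E8 Medium and at -0.49, 0.21 and -0.52 in MEF-CM. Its groups did not overlap, and it was 1.59 higher (SE 0.40, adjusted p = 0.0090 in limma's test). ACAT2, the thiolase that joins the first acetyl-CoA units, was at 4.00, 5.13 and 5.61 against 3.66, 3.52 and 3.67, and was 1.30 higher (SE 0.31, adjusted p = 0.0073 in limma's test). SC5D, a desaturase near the end of cholesterol synthesis, was at -1.09, -1.63 and -2.0 against -3.02, -2.53 and -2.93, and was 1.25 higher (SE 0.30, adjusted p = 0.0067 in limma's test). Within E8 Medium SC5D ran against INSIG1 and ACAT2, with its highest level in the pre-culture where theirs were lowest. SREBF1 was at 4.59, 4.69 and 4.73 against 3.45, 3.56 and 3.37, and was 1.21 higher (SE 0.15, adjusted p = 0.00012 in limma's test), whereas its second probe differed by -0.30 (adjusted p = 0.38). HMGCS1, which makes HMG-CoA, was at 1.91, 2.89 and 3.08 against 1.23, 1.68 and 1.53, and was 1.15 higher (SE 0.33, adjusted p = 0.018 in limma's test). ELOVL6 was at 1.87, 2.29 and 2.27 against 1.08, 1.12 and 0.97, and was 1.09 higher (SE 0.16, adjusted p = 0.00039 in limma's test). In each of these genes even the lowest E8 culture lay above the highest MEF-CM culture. SREBF2 was at 2.18, 2.36 and 2.47 against 1.42, 1.52 and 1.51, and was 0.85 higher (SE 0.15, adjusted p = 0.0013 in limma's test). The second probe of ACACA was 0.42 higher (adjusted p = 0.057), and of the 2 other probes of HSD17B7 1 passed (0.83 higher) and 1 did not (0.60 higher).

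Arm by arm, the median member was 0.40 higher in E8 Medium between the pre-cultures (22 of 29 higher, from -0.64 for NSDHL to 1.93 for SC5D), 0.81 between the bFGF cultures (29 of 29) and 1.02 between the FGFC cultures (29 of 29). The medians of all probes were 0.16, 0.17 and 0.16. Over all 11 H1 cultures in E8 Medium with FGF, 14 of 29 members lay wholly above the 3 MEF-CM cultures, against 17.8% of probes. The median of the 11 was below that of the 3 for NSDHL (2.66 against 3.02), MVD (0.81 against 1.02) and IDI1 (1.49 against 1.55). It was above for the other members. Without the 2 pre-cultures 27 members passed (33.2% of probes), without the 2 bFGF cultures 2, SREBF1 being 1 of them (6.16%), and without the 2 FGFC cultures 6 (15.5%). Of all probes 8833 were called higher and 3309 lower, and with quantile normalization 3250 and 3395, while 17 members still passed, all higher.

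**Figure D3:**
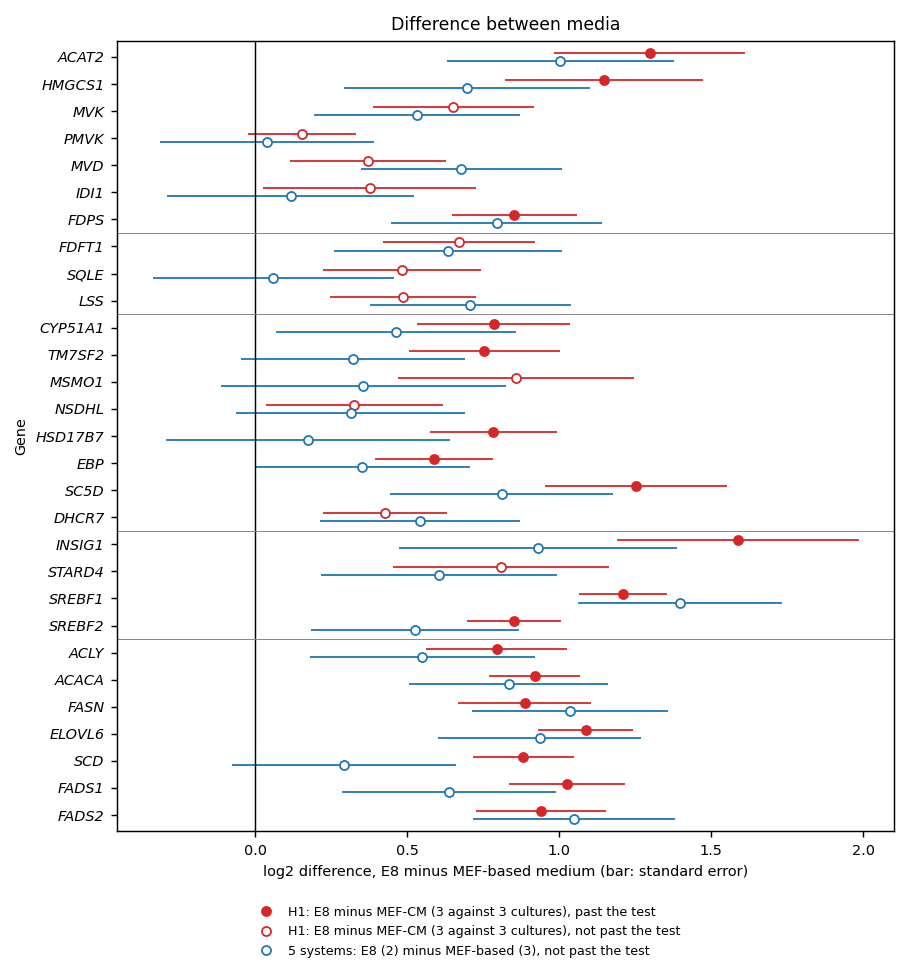
Log2 difference of each member between E8 Medium and MEF-based media, with bars of 1 standard error, for H1 alone (red, 3 against 3 cultures) and over the 5 systems (blue, 2 against 3 system means). Filled points passed limma's test: 18 members in H1, all to the right of 0. Over the 5 systems all points also lie to the right of 0, and no probe of the array passed.

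Genes of neighbouring pathways in H1 did not all follow the members. Of 6 genes of the LXR pathway, which senses oxysterols, 4 were called higher in E8 Medium and 0 lower. The largest was ABCG1, a sterol exporter, at -1.36 to -1.22 against -4.59 to -3.77, 2.95 higher (SE 0.21, adjusted p = 4.0e-06 in limma's test). MYLIP, which marks lipoprotein receptors for degradation, was at 1.83 to 2.36 against 0.49 to 0.82, 1.42 higher (adjusted p = 0.00016). Of 15 other genes of fatty acid metabolism 6 were called higher and 1 lower. SCD5, a desaturase related to SCD, was among those called higher (adjusted p = 0.0032 in limma's test). It was not well above background on any of the 6 MEF-CM arrays, and only on 3 of 6 in E8 Medium, so no size is given. ACSS2, which makes acetyl-CoA from acetate, was 1.38 higher (SE 0.43, adjusted p = 0.026), and MLXIPL, the gene of the glucose-responsive factor ChREBP, 1.34 higher (SE 0.38, adjusted p = 0.017 in limma's test). Of 10 genes of fatty acid oxidation and PPAR targets 2 were called higher and 3 lower. CPT1A, which admits fatty acids to mitochondria, was at -2.72 to -1.92 in E8 Medium against 0.21 to 0.39, a difference of -2.60 (SE 0.20, adjusted p = 5.5e-06 in limma's test). Of 13 other sterol genes 1 was called higher and 2 lower. Markers of other cell types moved with this comparison, and their part in it was not tested. Of 7 endoderm and hepatic markers 1 was called higher in E8 Medium and 2 lower, AFP being at -0.79 to 0.87 against 3.07 to 4.14 in MEF-CM, and their log2 summed level was -0.31 to 1.10 against 3.1 to 4.16. Of 8 fibroblast markers COL1A1 (-2.36) and COL1A2 (-1.26) were called lower, and the 2 called higher, COL3A1 and LUM, were not well above background on any of these arrays. Of 6 neural markers TUBB3 (-1.65) was called lower and MAP2 (1.93) and DCX (0.73) higher, and the other 2 called higher, SOX1 and NEUROD1, were not well above background on any of these arrays. The log2 summed level of the neural markers was 3.13 to 4.20 in E8 Medium and 5.00 to 5.44 in MEF-CM.

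Lines within a medium were compared in the same fit, so here too p-values measure only the spread among cultures of a system. Between 253G1 and H1 in E8 Medium, 19 members had a higher mean in 253G1 and 10 a lower, with a median difference of 0.22 against 0.01 for all probes. Only SCD, the stearoyl-CoA desaturase, passed the test among the members, where 4.59% of probes were called higher and 8.67% lower (5.63% and 9.5% of those well above background). SCD was at 1.74, 1.29 and 1.56 in 253G1 (pre-culture, bFGF, FGFC) and at 2.25, 1.99 and 2.08 in H1, without overlap, a difference of -0.58 (SE 0.17, adjusted p = 0.036 in limma's test). That call was lost without any 1 pair of cultures, with either array alone, with normexp background correction (adjusted p = 0.055) and with the median as the scale (a difference of -0.37). NSDHL, an enzyme of sterol demethylation, was at 3.82, 3.71 and 3.88 against 2.38, 3.48 and 3.92, a difference of 0.55 (adjusted p = 0.22 in limma's test). STARD4, a sterol carrier, was at 0.18, 0.07 and 0.25 against -1.18, -0.28 and 0.35, a difference of 0.54 (adjusted p = 0.32 in limma's test). In both genes the 30-day H1 cultures were near 253G1 and the H1 pre-culture stood apart, and without the pre-cultures 11 of 29 members were higher and their median difference was -0.11. SREBF1 differed by -0.18, SREBF2 by -0.07 and INSIG1 by 0.15, none past the test. With the median as the scale, the median difference of the members was 0.44 and that of all probes 0.22, and the split of called probes moved from 1946 higher and 3678 lower to 4420 and 2610.

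On feeder cells, 5 members had a higher mean in 201B7 than in KhES-1 and 24 a lower. The median difference of the members was -0.36, against 0.34 for all probes (63.6% higher). For the probes well above background, as all members were, it was -0.03 (48.4% higher). The 4 members that passed were 1 higher and 3 lower, where 26.5% of probes were called higher and 10.6% lower (20.1% and 16% of those well above background). At an unadjusted p under 0.05 were 8 members, where 35.1% of probes were higher and 15.3% lower. ACLY, which makes cytosolic acetyl-CoA from citrate, was at 1.40, 2.10 and 2.33 in 201B7 and at 2.55, 2.70 and 2.68 in KhES-1, a difference of -0.70 (SE 0.23, adjusted p = 0.032 in limma's test). PMVK, a kinase of the mevalonate pathway, was at 1.25, 1.5 and 1.85 against 2.21, 2.14 and 2.26, a difference of -0.67 (SE 0.18, adjusted p = 0.014 in limma's test). EBP, a sterol isomerase, was at 4.14, 4.68 and 4.93 against 5.08, 5.20 and 5.21, a difference of -0.58 (SE 0.19, adjusted p = 0.034 in limma's test). HSD17B7, which acts with NSDHL, was at 1.30, 0.72 and 0.59 against 0.18, 0.28 and 0.34, a difference of 0.61 (SE 0.21, adjusted p = 0.037 in limma's test), but its other probes differed by -0.41 (adjusted p = 0.24) and 0.24 (adjusted p = 0.22). SREBF1 differed by 0.00, SREBF2 by -0.26 and INSIG1 by -0.67, none past the test. In all 4 genes that passed, the 201B7 pre-culture stood farthest from KhES-1. That culture had the lowest member median of the 23, -0.73, and the lowest 75th percentile of signal, 208, where the other cultures had 504 to 855. Without the pre-cultures 0 members passed (16.4% of probes), without the bFGF cultures 0 (2.17%) and without the FGFC cultures 1 (25.7%). Under the median as the scale 12 members passed, all lower, the median of all probes was -0.09, and the split of called probes moved from 11229 higher and 4494 lower to 4285 and 10524. Markers of cell types also moved between these 2 systems, and their part in the members' values was not tested. All 8 fibroblast markers had a higher mean in 201B7, by 0.01 to 9.69, and 4 were called. All 7 endoderm and hepatic markers were higher with 0 called, and 5 of 6 neural markers with 1 called. All 7 pluripotent cell markers were lower, with 1 called.

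FGFC was compared with bFGF over the 10 long-term cultures, with the system as a block, to ask whether the change of FGF moved these genes. With FGFC 26 of 29 members had a higher mean, by a median of 0.11 against -0.04 for all probes. No member passed limma's test (0% of probes called), and 3 had an unadjusted p under 0.05, all higher (1.44% of probes, with 4.54% lower). The largest difference was that of MVK, the mevalonate kinase, at 0.26 (SE 0.10, adjusted p = 0.70), followed by STARD4 at 0.26 and TM7SF2, a sterol reductase, at 0.25. MVK with bFGF and FGFC was at 3.34 and 3.77 in H1 in E8 Medium, 3.27 and 3.51 in 253G1, 2.57 and 2.61 in MEF-CM, 2.86 and 3.25 in KhES-1 and 2.76 and 2.99 in 201B7. It was higher with FGFC in each system, as were PMVK, CYP51A1 and NSDHL, which makes 4 of 29 members against 4.56% of probes. SREBF1 differed by 0.06 (SE 0.11), SREBF2 by 0.11 (SE 0.08) and INSIG1 by 0.17 (SE 0.21), none past the test. By system, the median member differed by 0.18 in H1 in E8 Medium, 0.18 in 253G1, 0.25 in 201B7, 0.03 in KhES-1 and -0.05 in MEF-CM, from 1 culture in each arm. All 7 pluripotent cell markers had a higher mean with FGFC (median 0.11) and all 8 fibroblast markers a lower one (median -0.27), none past the test, and their part in the members' values was not tested.

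The long-term cultures were also set beside a pre-culture of their system, with no test. For H1 in E8 Medium the differences depended on which of its 3 pre-cultures was used. The 30-day culture with bFGF was above them by a member median of 0.68 (pre-culture of experiment 1, where the 30-day cultures belong), 0.37 (experiment 2) and 0.11 (experiment 3), with 27, 26 and 26 of 29 members higher. The culture with FGFC was above them by 0.83, 0.57 and 0.25, with 27, 27 and 28 members higher. ACAT2 differed by 1.13, 0.95 and 0.07 with bFGF and by 1.61, 1.43 and 0.55 with FGFC. SC5D differed by -0.54, -0.26 and 0.08 with bFGF and by -0.91, -0.62 and -0.29 with FGFC, so its direction with bFGF turned with the pre-culture. The other systems had 1 pre-culture each. In 201B7 the medians were 0.48 and 0.66, again from the pre-culture with the low signal. In 253G1 they were -0.07 and 0.06, in MEF-CM 0.10 and 0.08, and in KhES-1 0.06 and 0.13.

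The 4-day experiments with H1 in E8 Medium asked what removal of FGF changed. They were fitted with limma over 12 cultures, 3 in each arm and 3 pre-cultures. This fit did not pair the arms by experiment, and counts with the experiment as a block are given under the additional observations. Without FGF, 27 members had a higher mean than with bFGF and 2, SC5D and ELOVL6, a lower mean. The median difference of the members was 0.44 against 0.01 for all probes, and 0.42, 0.36 and 0.40 in experiments 1, 2 and 3. Past the test were 4 members higher and 1 lower, where 5.54% of probes were called higher and 7.19% lower (7.42% and 10.1% of those well above background). Higher in each of the 3 experiments were 22 members (32.7% of probes), and wholly above the bFGF cultures were 16 (24.2% of probes). The genes from acetyl-CoA to farnesyl diphosphate had the highest median, 0.71, and the fatty acid genes the lowest, 0.13.

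Levels are given for experiments 1, 2 and 3. TM7SF2, which reduces a double bond on the way from lanosterol, was at 1.5, 1.63 and 1.75 without FGF and at 0.35, 0.46 and 0.34 with bFGF. Its difference was the largest, 1.24 (SE 0.16, adjusted p = 0.00045 in limma's test). INSIG1 was at 2.10, 1.63 and 1.80 against 0.26, 0.91 and 0.80, and was 1.19 higher (SE 0.22, adjusted p = 0.0041 in limma's test). SC5D was at -1.97, -2.18 and -1.99 against -1.19, -1.22 and -0.92, a difference of -0.93 (SE 0.23, adjusted p = 0.019 in limma's test). MVK was at 3.32, 3.51 and 3.69 against 2.42, 2.87 and 2.67, and was 0.85 higher (SE 0.20, adjusted p = 0.015 in limma's test). FADS1, a desaturase of polyunsaturated fatty acids, was at 3.63, 4.12 and 3.80 against 3.21, 3.34 and 3.31, and was 0.56 higher (SE 0.17, adjusted p = 0.048 in limma's test). In each of these 5 genes the arms did not overlap. SREBF1 was at 4.64, 5.24 and 4.68 against 4.57, 4.39 and 4.28, a difference of 0.44 (adjusted p = 0.20), and SREBF2 at 2.26, 2.31 and 2.33 against 2.12, 2.22 and 2.22, a difference of 0.11 (adjusted p = 0.67 in limma's test). The second probe of SREBF1 differed by -0.14 (adjusted p = 0.67 in limma's test).

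Neural markers moved with this comparison, and their part in it was not tested: of 6 neural markers 3 were called higher and 0 lower, and PAX6 rose from not well above background on any bFGF array to well above it on all 6 without FGF. Of 7 pluripotent cell markers 1 was called higher and 3 lower. Without experiment 1, 2 members passed (8.39% of probes), without experiment 2 again 2 (4.58%), and without experiment 3 none (3%), with 8 members at an unadjusted p under 0.05 in limma's test (14.4% of probes). FADS1 was lost in all 3 cases. In experiment 2 the passage labels differ, 49 for the pre-culture and 59 for the 4-day arms, and its bFGF arrays were on another slide than the other arms.

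The comparison of no FGF with FGFC shares the cultures without FGF. Against FGFC, 27 members again had a higher mean and 2 a lower, with a median of 0.29 against -0.02 for all probes. The median was lower in experiment 1, at 0.11 with 18 of 29 members higher, than in experiments 2 and 3, at 0.45 and 0.31. Past the test were 3 members higher and 1 lower, where 4.72% of probes were called higher and 6.07% lower (7.28% and 8.62% of those well above background). TM7SF2, at 0.33, 0.54 and 0.50 with FGFC, was 1.17 higher without FGF (SE 0.16, adjusted p = 0.00075 in limma's test). INSIG1, at 1.01, 0.69 and 0.92 with FGFC, was 0.97 higher (SE 0.22, adjusted p = 0.014 in limma's test). MVK, at 2.74, 2.66 and 2.61 with FGFC, was 0.83 higher (SE 0.20, adjusted p = 0.019 in limma's test). SC5D, at -1.56, -1.14 and -0.77 with FGFC, differed by -0.89 (SE 0.23, adjusted p = 0.028 in limma's test). The 3 cultures with FGFC lay on the bFGF side of those without FGF for each of these 4 genes. Without experiment 2, 1 member passed (3.49% of probes), and without experiment 3 none (2.3%), with 5 at an unadjusted p under 0.05 in limma's test (12.6% of probes).

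Between FGFC and bFGF at 4 days 22 members had a higher mean with FGFC and 7 a lower, with a median of 0.08 against 0.00 for all probes. No member passed limma's test or had an unadjusted p under 0.05 (0% of probes called, and 2.54% higher and 0.434% lower at the unadjusted p). The largest differences were those of DHCR7, the last reductase of cholesterol synthesis, at 0.38 (SE 0.21), SQLE, the squalene epoxidase, at 0.26 (SE 0.22) and INSIG1 at 0.22 (SE 0.22), each with an adjusted p of 0.9999 in limma's test. SREBF1 differed by 0.11 and SREBF2 by 0.08. DHCR7 was at 4.34, 4.47 and 4.81 with FGFC and at 3.94, 4.24 and 4.31 with bFGF. SQLE was at 2.89, 3.02 and 3.17 against 2.36, 3.05 and 2.90. The median member differed by 0.32 in experiment 1, -0.17 in experiment 2 and 0.09 in experiment 3, so the direction was not shared by the experiments, and without experiment 1 the mean was higher with FGFC for 11 of 29 members and INSIG1 differed by -0.048.

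**Figure D4:**
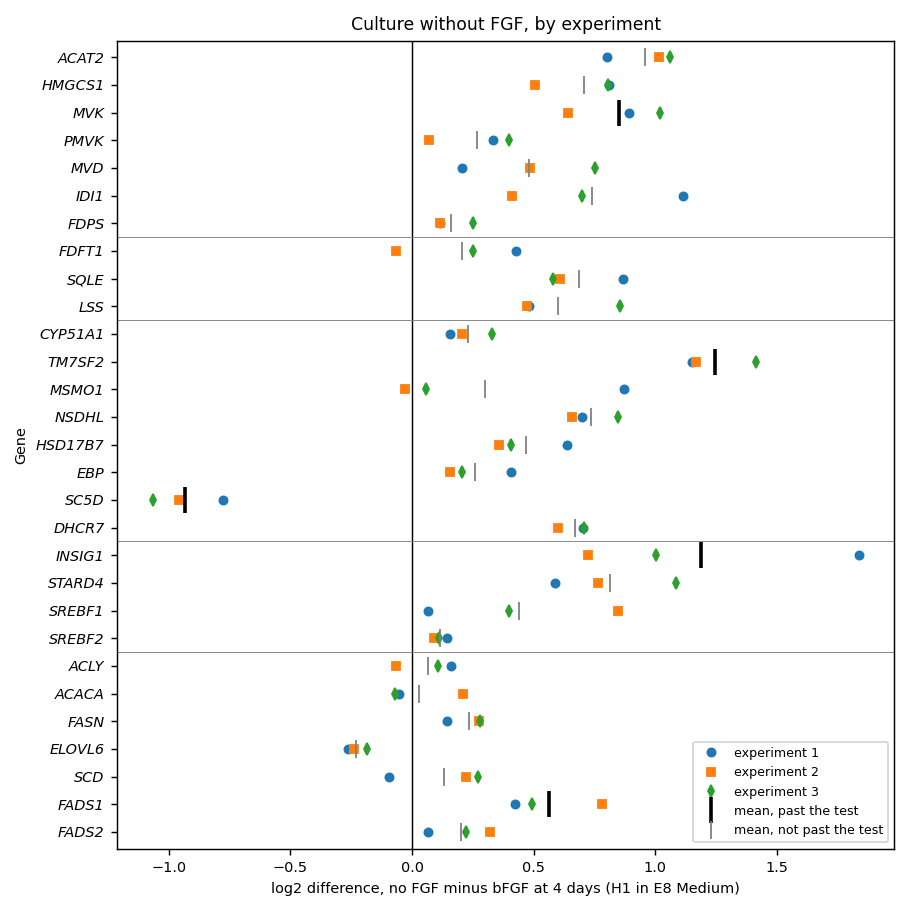
Log2 difference of each member between no FGF and bFGF after 4 days in H1 in E8 Medium, for experiments 1, 2 and 3 (coloured points) and for their mean (vertical tick, black where it passed limma's test). TM7SF2 and INSIG1 lie to the right of 0 in each experiment, and SC5D to the left in each.

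The differentiated H1 culture has no replicate, so its levels were set beside the range of the 11 undifferentiated H1 cultures in E8 Medium with FGF, with no test. The levels of 6 members were 2-fold or more below the mean of the 11 and of 0 above it, where 15.8% of probes were 2-fold or more lower and 13.3% higher. Below the range of the 11 were 18 of 29 members (32.3% of probes), and above it 0 (20.6% of probes). The median member differed by -0.60, against -0.21 for all probes. The fatty acid genes differed by a median of -1.14, and the groups of sterol genes by -0.34 to -0.57. Beside the range of the H1 cultures in MEF-CM the members went both ways. Above it were HMGCS1, MVK, PMVK, FDPS, TM7SF2, SC5D, INSIG1 (0.75 against -0.52 to 0.21), STARD4, SREBF2 and FADS1. Below it were MVD, SQLE, LSS, CYP51A1, EBP, DHCR7, SREBF1 (2.37 against 3.37 to 3.56), ACLY, ACACA, FASN, ELOVL6 and SCD. The other members lay within it. The medium of the differentiated culture also differed from E8 Medium, and medium and differentiation cannot be told apart.

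SREBF1 was at 2.37, where the 11 cultures were at 4.28 (lowest), 4.57 (median) and 4.78 (highest), 4.55-fold below their mean. This value rests on the brighter of its 2 probes, whose differences between media the dimmer one did not share. ELOVL6 was at 0.39 against 1.63, 1.87 and 2.29, 2.99-fold lower. FASN was at 2.76 against 3.77, 4.30 and 4.74, 2.85-fold lower. These levels of SREBF1, ELOVL6 and FASN, and those of ACACA, ACLY and SCD given next, were below those of every undifferentiated culture. The lowest of those, in MEF-based media, was close for ACLY (1.40) and SCD (1.07). ACACA was at 3.02 against 4.23, 4.40 and 4.76, 2.67-fold lower, and ACLY at 1.36 against 2.01, 2.41 and 2.97, 2.20-fold lower. SCD was at 1.02 against 1.82, 2.08 and 2.25, 2.06-fold lower, with its 2 arrays at 1.22 and 0.82. SREBF2 was at 1.70 against 2.12 to 2.47, also below the range. INSIG1, at 0.75, was within its range of 0.26 to 1.84. MVK, PMVK, IDI1, TM7SF2, NSDHL and STARD4 were at or above the mean of the 11, by 0.00 for NSDHL to 0.40 for MVK. In the same culture 6 of 10 genes of fatty acid oxidation and PPAR targets were 2-fold or more higher, and 3 of 6 genes of the LXR pathway 2-fold or more lower. Markers of other cell types moved with these values: 7 of 8 fibroblast, 7 of 7 endoderm and hepatic and 6 of 6 neural markers were 2-fold or more higher, and their part was not tested.

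**Figure D5:**
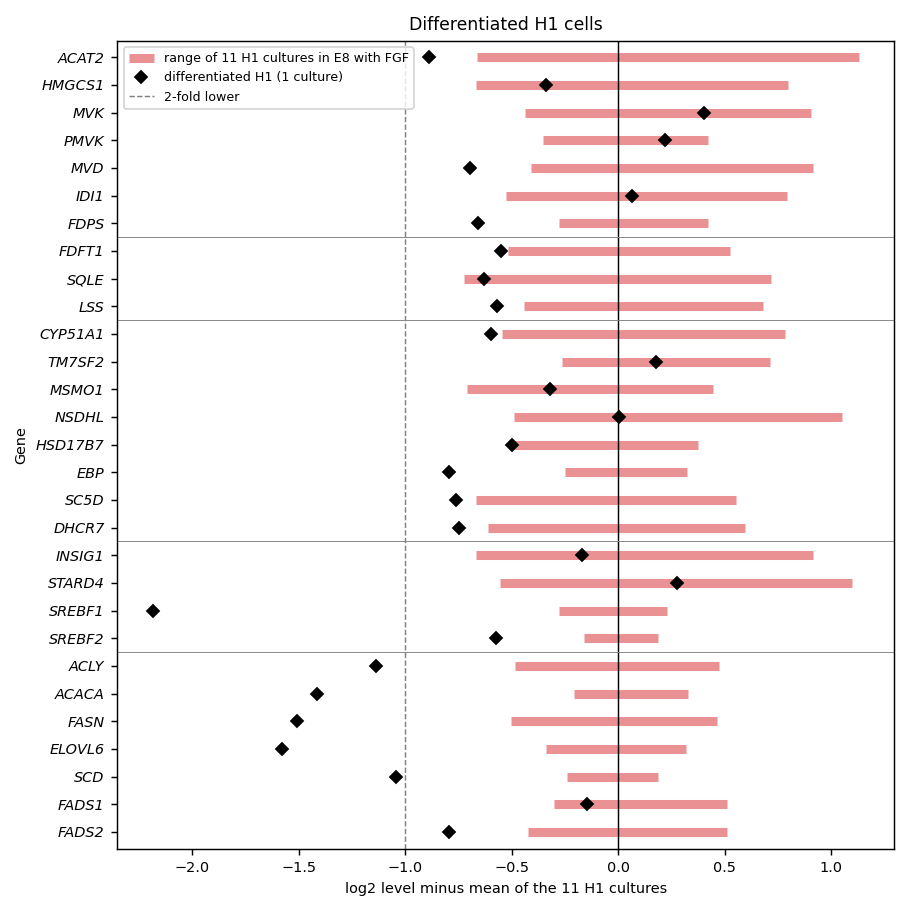
Log2 level of each member in the differentiated H1 culture (diamonds, 1 culture) and the range of the 11 undifferentiated H1 cultures in E8 Medium with FGF (bars), both as the difference from the mean of the 11. The 6 diamonds left of the dashed line, at 2-fold lower, are SREBF1, ELOVL6, FASN, ACACA, ACLY and SCD.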

How the data were processed

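Total RNA from frozen cells was labelled with Cy3 and hybridised to Agilent SurePrint G3 Human 8 × 60K arrays, per the study's methods. The deposited processed signal is an intensity from Agilent Feature Extraction 10.7.3.1, per the file headers, linear, with background already subtracted and no scaling across arrays. The yes or no flags for outliers, saturation and detection above background were deposited with it, as were the raw median signal and background intensities that served for the normexp alternative.

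Control spots (4259) and spots with the outlier flag (266 to 623 per array) were removed. Values under 1 became 1 before log2 transformation, spots were averaged for each of 42405 probes, and the 75th percentile of all probes was subtracted from each array. Detection required the flag on a fraction of 0.5 or more of a probe's spots, which held for 56.2% to 79.2% of probes per array. No spot was saturated, and the number of cultures limits the precision. RefSeq accessions gave a symbol to 25715 probes. Conditions came from the sample titles, and the passage labels of 5 arrays of experiment 3 conflict. The 4-day arms of 1 number share experiment and passage in the labels, and deviations of same-numbered cultures correlated at 0.19 to 0.32 (no FGF with bFGF), 0.23 to 0.26 (no FGF with FGFC) and 0.08 to 0.18 (bFGF with FGFC), so the numbers were taken to pair both comparisons with no FGF. The fit without the pairing came first, and the 4-day p-values in the results are from it. Cultures of a group are those that the labels number or name apart, and p-values measure only the spread between them.

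Tests used limma 3.58.1 (lmFit, eBayes, Benjamini-Hochberg over all probes, threshold 0.05) in R 4.3.3, checked on simulated data, with Python 3.11.15, numpy 2.4.6, pandas 2.3.3, scipy 1.17.1 and matplotlib 3.10.9. Every adjusted p is from limma. Named by rule were SREBF1, SREBF2 and INSIG1 and, in each comparison, up to 6 members with the largest difference past the test, or 3 by size where fewer than 3 passed, and up to 6 genes of neighbouring pathways past the test between media. The members, lists and comparisons were chosen with earlier results of these data known. Alternatives were normexp background correction (offset 50), quantile normalization, the median as the scale, the mean of all probes of a gene, each array alone, probes above background alone, blocks for slide, system or experiment, other choices of cultures and leaving out cultures.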

Additional observations from a re-analysis of the deposited data

How the results depend on the processing

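The counts of members past limma's test, given beside the values in the report, moved by more than 1.5 times in these cases. Percentages are the shares of all probes called in the same setting. Over the 5 systems 0 became 1 with normexp background correction (0.95%) and 1 with all 23 cultures and system as a random block (0.724%). It became 11 with slide as a random block (14.8%), where the 15 single cultures replaced the system means as replicates. For 253G1 against H1, 1 became 0 with normexp (4.57%), with the median as the scale (16.6%), and with the first (8.06%) or the second array alone (11.6%). For 201B7 against KhES-1, 4 became 2 with quantile normalization (18%) or the first array alone (23.2%), and 12 with the median as the scale (34.9%). For no FGF against bFGF, 5 became 10 with normexp (14.3%) and 11 with only probes well above background (23.6%), where fewer probes are tested. It became 12 with slide as a random block (17.8%) and 9 with only the arms compared (23%). For no FGF against FGFC, 4 became 2 with only the arms compared (6.02%). Leaving out cultures gave 2 to 27 members for H1 in both media (main 18, 6.16% to 33.2% of probes), 0 for 253G1 (1.55% to 7.65%) and 0 to 1 for 201B7 (2.17% to 25.7%). It gave 0 to 2 for no FGF against bFGF (3% to 8.39%) and 0 to 4 against FGFC (2.3% to 9.06%). Over the 5 systems (0% to 0.106%) and for FGFC against bFGF (0%) it gave 0. The direction reversed for the median of the members in 253G1 without the pre-cultures (leave-one-out range -0.11 to 0.40) and for INSIG1 in FGFC against bFGF at 4 days without replicate 1 (leave-one-out range -0.048 to 0.43). The causes were not tested.

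Of all probes, those past the test numbered 0 over the 5 systems, against 403 with normexp, 49 with the median as the scale, 1 with probes well above background alone, 307 with all 23 cultures and 6280 with the slide block. For H1 12142 became 3765 (normexp), 6645 (quantile) and 5926 (well above background). For 253G1 5624 became 1939 (normexp) and 3417 (first array). For 201B7 15723 became 9371, 7631 (quantile) and 9858 (first array). For no FGF, 5400 became 9750 and 4575 became 2553 with only the arms compared, and 4575 became 6998 with the slide block.

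With the experiment as a replicate block, 7 members passed in no FGF against bFGF (13.6% of probes), among them the 5 of the fit without it. The same 4 passed in no FGF against FGFC (11.6% of probes), and 0 between FGFC and bFGF (0% of probes). With the pre-cultures included, the 18 correlations of same-numbered cultures ran from -0.16 to 0.52 (median 0.19, 13 over 0.1).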

Other observations

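Genes around the members also differed without FGF. They were chosen after their values were seen, in the limma comparison of no FGF with bFGF at 4 days. SOAT1, which esterifies cholesterol for storage, was at -1.77 to -1.52 without FGF and at -5.21 to -4.51 with bFGF, 3.22 higher (SE 0.23, adjusted p = 8.0e-06). ABCA1, a cholesterol exporter, was at 1.22 to 1.49 against -0.71 to -0.59, 2.04 higher (SE 0.22, adjusted p = 0.00013). PLIN2, a coat protein of lipid droplets, was 1.58 higher (SE 0.22, adjusted p = 0.00082). LBR, which shares its sterol reductase activity with TM7SF2, was 0.63 higher (SE 0.16, adjusted p = 0.027). Lower without FGF were ABCG1, at a difference of -1.09 (SE 0.21, adjusted p = 0.0053), CPT1A at -1.51 (SE 0.28, adjusted p = 0.0042) and ACSL1, which activates long-chain fatty acids, at -1.80 (SE 0.20, adjusted p = 0.00015). In the comparison of H1 media ABCG1 was higher in E8 Medium and CPT1A lower, so these 2 genes moved together without FGF and apart between media.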
